A study of Homo sapiens with 16 samples.

Results

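Levels of 8 long noncoding RNAs were followed in 2 human pancreatic cancer cell lines treated with gemcitabine, genistein or both drugs. The 8 genes are RP11-284F21.10, UCA1, MALAT1, NEAT1, PVT1, TUG1, MIR22HG and LINC00152, out of 63677 gene IDs counted. They were chosen by name as abundant or line-specific noncoding RNAs, and RP11-284F21.10 was also chosen because it is higher with genistein. Their levels, the differences between the cell lines, and the genistein values of RP11-284F21.10 therefore stand here as a description, without a test. The other drug contrasts were tested, but the genes were picked with earlier results of these data known. The gemcitabine contrasts of RP11-284F21.10 share control or genistein libraries with the values that chose it. Their p-values are therefore not independent of that choice.

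Mia-PaCa-2 and PANC-1 are established lines grown from pancreatic ductal adenocarcinomas, and no allele was engineered in either. Each line has 4 groups, namely an untreated control, 40 nmol/L gemcitabine, 50 μmol/L genistein, and both drugs at these concentrations (co-treatment), all for 24 hours. Gemcitabine is a deoxycytidine analogue that blocks DNA synthesis, and genistein is an isoflavone and phytoestrogen from soy. Poly-A RNA of 2 biological replicates per group was sequenced, giving 16 libraries, and a culture of one line stands for one tumor. The study's methods dissolved genistein, but not gemcitabine, in DMSO, and whether the controls received DMSO is not given in the sources used here.

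Between 12943482 and 31991860 reads were counted on genes per library (median 16059396.5). Of 6 ductal or epithelial markers, 3 exceeded 1 FPKM (fragments per kilobase of transcript, scaled to library size) in every Mia-PaCa-2 library and all 6 did so in every PANC-1 library. Acinar, endocrine and fibroblast markers stayed below that level in each library, 1 of 5 leukocyte markers exceeded it in every Mia-PaCa-2 library, and 1 of 3 endothelial markers in some of them. Mitochondrially encoded genes took 3.25% to 5.11% of the counts. Libraries differed in how strongly counts followed the GC content of genes, from -0.24 log2 units per 10 points of GC in Mia-PaCa-2 control replicate 1 to 0.30 in PANC-1 control replicate 1 and Mia-PaCa-2 co-treatment replicate 2, relative to the mean of the line. In Mia-PaCa-2 the slope was negative in both controls and positive in the 4 libraries with gemcitabine. A correction for GC content is therefore given where it changed a call of one of the 8 RNAs. For neighboring genes and gene lists it is given in part, so silence there does not mean an unchanged call or count.

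Long noncoding RNAs are transcripts that encode no known protein and act as RNA, as scaffolds, decoys or hosts of small RNAs. MALAT1 and NEAT1 stay in the nucleus, where MALAT1 collects in the nuclear speckles that hold splicing factors, and NEAT1 is the core on which paraspeckles are built. TUG1 is found in nucleus and cytoplasm and is required in the developing retina. UCA1, PVT1 and LINC00152 (also named CYTOR) were described in tumors, PVT1 beside the MYC gene. MIR22HG is the transcript from which the microRNA miR-22 is cut, and RP11-284F21.10 is a clone-based name with no function attached. MALAT1 and the long form of NEAT1 end in a triple helix in place of a poly-A tail, so a poly-A library samples them incompletely. In bulk RNA, fewer cells carrying a transcript and less of it per cell cannot be told apart.

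Levels per transcript length spanned a wide range in untreated Mia-PaCa-2 cells. UCA1 was the highest of the 8 at 222 ± 10.9 FPKM (SD, n = 2), above 94.7% of the 16311 genes with a control mean over 1 FPKM. LINC00152 followed at 91.1 ± 6.08 FPKM and TUG1 at 49.1 ± 0.76 FPKM. The next values were 29.7 ± 0.19 FPKM for NEAT1 and 28.5 ± 5.17 FPKM for PVT1, whose replicates overlapped. MALAT1 (20.0 ± 0.055 FPKM), RP11-284F21.10 (15.0 ± 0.856 FPKM) and MIR22HG (7.04 ± 0.355 FPKM) stood lower and apart from each other, MIR22HG above 35.6% of those genes.

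In untreated PANC-1 cells the order was another one. PVT1 came first at 54.0 ± 2.37 FPKM, then LINC00152 at 46.1 ± 2.12 FPKM. TUG1 (29.0 ± 9.50 FPKM) overlapped NEAT1 (23.2 ± 5.45 FPKM), and MALAT1 (13.6 ± 6.01 FPKM) overlapped MIR22HG (9.54 ± 0.127 FPKM). RP11-284F21.10 had 0.958 ± 0.0586 FPKM and UCA1 0.009 FPKM, both under 1 FPKM. On the scale of counts normalized by the TMM method, which corrects library sizes for composition, RP11-284F21.10 was 16.2-fold lower in PANC-1 than in Mia-PaCa-2, LINC00152 2.17-fold lower and PVT1 1.92-fold higher. Of all genes tested 52.3% differed between the untreated lines by the criteria used here, so a line difference is common.

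**Figure D1:**
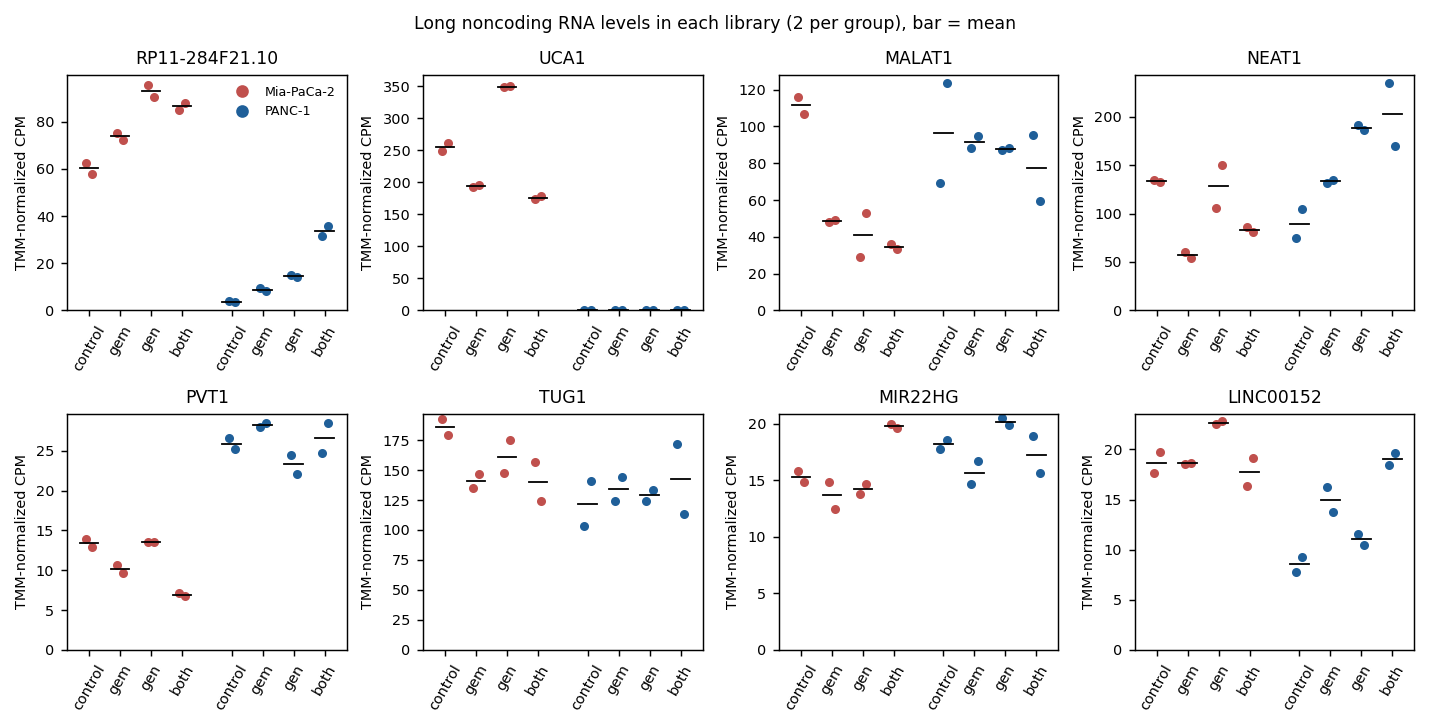
TMM-normalized CPM (counts scaled to a common library size, vertical axis, from 0) of each of the 8 RNAs in the 16 libraries, by line and group (gem, gemcitabine; gen, genistein; both, co-treatment), with a bar at the mean of the 2 replicates. RP11-284F21.10 climbs from 3.41 to 35.9 CPM in PANC-1, UCA1 lies at 0 there on this scale, and MALAT1 stands at 116.1 and 106.6 CPM in the Mia-PaCa-2 controls but at 29.0 to 52.7 CPM with any drug.

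RP11-284F21.10 (ENSG00000272405) lies on chromosome 1 of GRCh37, minus strand, 156611458 to 156614679, as a single exon of 3222 bases with 1 annotated transcript. Only 162 of these bases, 5.03%, are shared with exons of BCAN (brevican, a proteoglycan of the brain) on the opposite strand, and BCAN itself had 0 to 17 counts per library. The strand setting of the counting is not given in the sources used here. RefSeq's promoter table has no entry of this name, so the 300 bases around its annotated start, chr1:156614630-156614929 (minus strand, 250 before to 50 from the start), were read from GRCh37. They are shown because the RNA moved with both drugs. Capitals mark a CCAAT box, searched as CCAAT on both strands, the only match among the motifs searched.
RP11-284F21.10 promoter: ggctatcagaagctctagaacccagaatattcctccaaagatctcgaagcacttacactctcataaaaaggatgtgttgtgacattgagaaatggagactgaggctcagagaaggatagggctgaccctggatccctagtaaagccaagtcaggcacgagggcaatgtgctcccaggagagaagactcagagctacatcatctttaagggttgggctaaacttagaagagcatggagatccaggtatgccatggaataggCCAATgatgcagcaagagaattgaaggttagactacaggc
The other motifs searched on both strands were AP-1 (TGANTCA), a cyclic AMP response element (TGACGTCA), an E-box (CACGTG), a GC box (GGGCGG) and the consensus estrogen response element, and none of these is in the window. Of 35116 RefSeq promoters of the same length, 34.6% hold CCAAT, 45.0% the GC box, 7.71% AP-1, 7.26% the E-box, 1.85% the cyclic AMP element and 0.0570% the estrogen element. None of the motif matches printed here overlap another.

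In PANC-1, RP11-284F21.10 had 4.11 and 3.41 CPM in the controls, 9.34 and 8.09 with gemcitabine, 15.0 and 14.0 with genistein, and 31.6 and 35.9 with co-treatment. None of the 4 groups overlapped, and co-treatment was the highest. Gemcitabine raised the RNA 2.40-fold over the control (log2 fold change 1.27, SE 0.17, 95% interval 0.86 to 1.67, limma-voom, Benjamini-Hochberg adjusted p = 0.00795). Added to genistein it raised the RNA 2.30-fold (log2 fold change 1.20, SE 0.15, adjusted p = 0.00511 from the same test). The first contrast uses the control libraries and the second the genistein libraries that chose this RNA, so neither p is independent of the choice. With 1 library left out, the first call was lost without gemcitabine replicate 1 (1.17, adjusted p = 0.0845) or 2 (1.36, adjusted p = 0.0736), and the second without genistein replicate 1 (1.28, adjusted p = 0.0878) or 2 (1.16, adjusted p = 0.102).

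As a description, the genistein group of PANC-1 was 3.99-fold above its control (log2 difference 1.998, SE 0.17) and co-treatment 3.82-fold above gemcitabine (1.93). These values chose the gene and are not tested. In Mia-PaCa-2, where the RNA was already high, it had 62.6 and 57.7 CPM in the controls, 75.4 and 72.1 with gemcitabine, 95.3 and 90.5 with genistein, and 85.1 and 87.8 with co-treatment. The genistein libraries were the highest there, 1.52-fold above the controls (log2 difference 0.61, SE 0.09), and co-treatment differed from gemcitabine by 0.22. Gemcitabine against control gave 0.24 (adjusted p = 0.0591) and gemcitabine added to genistein -0.15 (adjusted p = 0.206), and neither was called. With GC correction these became -0.02 and -0.41, the second of which was called (adjusted p = 0.00103).

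The gemcitabine response of RP11-284F21.10 differed between the lines by 0.94 log2 units, PANC-1 minus Mia-PaCa-2 (SE 0.19, 95% interval 0.53 to 1.35, adjusted p = 0.00715, limma-voom over 16 libraries). This difference uses the control libraries of both lines, which also chose the RNA, so its p is not independent of the choice. The call held with each library left out and was lost on log2(FPKM + 1) values (0.48, adjusted p = 0.0882).

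Among the 18 other genes within 100 kb of RP11-284F21.10, 10 passed the low-count filter in Mia-PaCa-2 and 11 in PANC-1. The closest on its strand are the noncoding RNAs RP11-284F21.9, at 662 bases, and RP11-284F21.7, at 1620 bases. RP11-284F21.7 had 0.55 and 0.31 CPM in PANC-1 controls, 1.78 and 1.47 with gemcitabine, 1.09 and 1.13 with genistein, and 4.42 and 7.68 with co-treatment. Its groups did not overlap in PANC-1, co-treatment was the highest, and the levels were far below those of RP11-284F21.10. Gemcitabine raised it there over the control (2.004, adjusted p = 0.0384) and when added to genistein (2.34, adjusted p = 0.0147), at low counts. The first call was lost without any 1 of the 4 libraries (adjusted p = 0.185 and 0.171 without gemcitabine replicate 1 and 2, 0.0901 and 0.131 without control replicate 1 and 2). The second was lost without genistein replicate 1 (adjusted p = 0.154) or 2 (adjusted p = 0.169).

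In Mia-PaCa-2, RP11-284F21.7 had 4.26 and 4.52 CPM in the controls and 9.07 and 6.48 with gemcitabine, a rise of 0.75 (adjusted p = 0.0151) that fell to 0.19 after GC correction (adjusted p = 0.349) and was not called without gemcitabine replicate 1 (0.51, adjusted p = 0.149), control replicate 1 (0.71, adjusted p = 0.114) or control replicate 2 (0.79, adjusted p = 0.0590). RP11-284F21.9 ranged from 14.3 to 24.2 CPM in Mia-PaCa-2 and from 0.486 to 2.42 CPM in PANC-1, and gemcitabine added to genistein raised it in Mia-PaCa-2 (0.54, adjusted p = 0.0108), which GC correction left at 0.36, under the size required. Across all neighbors that passed, gemcitabine against control raised 3 and lowered 2 in Mia-PaCa-2, and raised 3 and lowered 3 in PANC-1. These shares stand beside 15% higher and 14.6% lower of all genes in Mia-PaCa-2, and 4.49% and 3.03% in PANC-1. With GC correction the counts were 0 and 4 in Mia-PaCa-2, and 2 and 2 in PANC-1. The shares of all genes were then 12.5% and 16.3%, and 9.29% and 9.34%. NES, the intermediate filament nestin, fell in both lines (-0.54 and -0.51), while GPATCH4 fell in Mia-PaCa-2 (-0.66) and rose in PANC-1 (0.69). Genistein against control called 0 of the 11 neighbors in PANC-1 by limma-voom, where 6 had an unadjusted p under 0.05 and 0.0591% of all genes were called. RP11-284F21.7 stood at 1.49 in that contrast (adjusted p = 0.189) and was called with GC correction (2.18, adjusted p = 0.00325), which called 1227 genes in all. For genistein added to gemcitabine it stood at 1.83 (adjusted p = 0.117), and it was called with GC correction (1.84, adjusted p = 0.00123), by DESeq2 (1.89, adjusted p = 0.00625) and in the 16-library model (1.85, adjusted p = 0.00987). Over all genes that contrast called 3 by limma-voom, 1263 with GC correction and 208 by DESeq2.

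**Figure D2:**
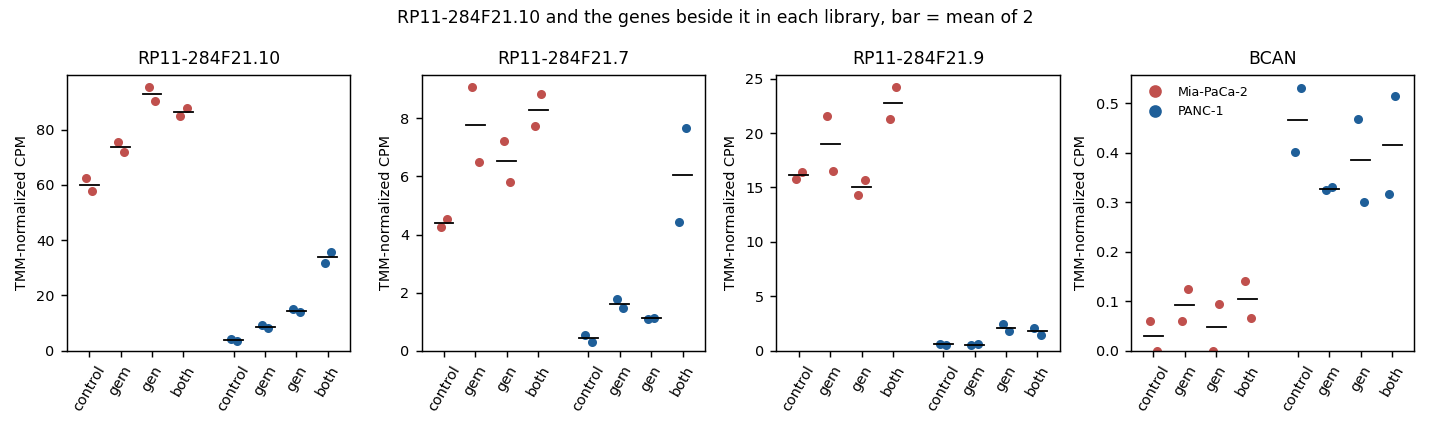
TMM-normalized CPM (vertical axes, from 0, each with its own range) of RP11-284F21.10, RP11-284F21.7, RP11-284F21.9 and BCAN in the 16 libraries, with bars at the mean of 2 replicates. In PANC-1 the co-treatment libraries are the highest for RP11-284F21.10 (31.6 and 35.9 CPM) and for RP11-284F21.7 (4.42 and 7.68 CPM), and BCAN stays below 1 CPM in every library.

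Of the 8 RNAs, gemcitabine against control called 5 in Mia-PaCa-2, all lower, where 29.6% of all genes were called, 15% higher and 14.6% lower. A call needed an adjusted p of at most 0.05, a log2 fold change of at least 0.4 in size and a treated mean above 1 FPKM. The 5 were MALAT1, NEAT1, UCA1, PVT1 and TUG1, and the median over the 8 was -0.45 against -0.01 over all genes. In PANC-1 the same contrast called 2 of the 7 tested, both higher, where 7.52% of all genes were called, 4.49% higher and 3.03% lower. The median there was 0.18 against 0.03.

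MALAT1 (ENSG00000251562, chromosome 11, plus strand, 65265111 to 65275544) had 116.1 and 106.6 CPM in Mia-PaCa-2 controls, 47.8 and 49.1 with gemcitabine, 29.0 and 52.7 with genistein, and 36.0 and 33.2 with co-treatment. Every treated library lay below both controls. Gemcitabine lowered it (log2 fold change -1.25, SE 0.18, 95% interval -1.65 to -0.86, adjusted p = 0.000266, limma-voom), and so did genistein (-1.48, SE 0.19, adjusted p = 0.00102). The genistein contrast called 2 of the 7 RNAs tested in it, 1 higher and 1 lower, where 8.31% of all genes were called, 4.18% higher and 4.13% lower. Both MALAT1 calls held under each alternative tried, GC correction included (-1.10 and -1.37).

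Neither drug added to the other gave a called change of MALAT1 in Mia-PaCa-2. Genistein added to gemcitabine gave -0.49 (adjusted p = 0.166), a call only when the 4 libraries compared were modelled alone (adjusted p = 0.0334). Gemcitabine added to genistein gave -0.27 (adjusted p = 0.320), which became -0.68 and called without genistein replicate 1 (adjusted p = 0.00149), the lower of the genistein replicates, and 0.22 without replicate 2. The gemcitabine by genistein interaction was 0.98 (adjusted p = 0.394), and 1.47 without genistein replicate 2 (adjusted p = 0.0187).

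In PANC-1, MALAT1 was at 69.0 and 123 CPM in the controls, 88.0 and 94.7 with gemcitabine, 86.9 and 88.5 with genistein, and 95.4 and 59.5 with co-treatment. The controls spanned all 4 single-drug libraries, and the gemcitabine contrast was -0.01 (SE 0.30, adjusted p = 0.992). Exons of the antisense RNA TALAM1 cover 77.8% of the exon length of MALAT1, so reads of the 2 cannot be told apart if counting ignored strand.

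NEAT1 (ENSG00000245532, chromosome 11, plus strand, 65190245 to 65213011) ends 52100 bases from MALAT1. In Mia-PaCa-2 it had 135 and 132 CPM in the controls, 60.1 and 53.8 with gemcitabine, 105.6 and 150.1 with genistein, and 85.9 and 80.9 with co-treatment. The gemcitabine libraries were the lowest, the genistein libraries spanned the controls, and co-treatment lay between. Gemcitabine lowered NEAT1 (-1.28, SE 0.15, adjusted p = 4.8e-05, held under every alternative tried). It also lowered NEAT1 when added to genistein (-0.66, adjusted p = 0.00278), though not to the size required without genistein replicate 2 (-0.38, adjusted p = 0.0431) or on log2(FPKM + 1). The latter contrast called 5 of the 8 RNAs, 4 of them lower, where 31.5% of all genes were called, 16.6% higher and 14.9% lower.

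Genistein alone left NEAT1 at -0.08 in Mia-PaCa-2, but added to gemcitabine it raised it (0.54, adjusted p = 0.0496), in a contrast that called 2 of the 7 RNAs tested, both higher, where 5.88% of all genes were called, 4.05% higher and 1.83% lower. That call sat at the threshold and was lost without co-treatment replicate 1 (adjusted p = 0.0557) or 2 (adjusted p = 0.0516), or without gemcitabine replicate 1 (adjusted p = 0.195) or 2 (adjusted p = 0.286). It was also lost with library size alone, on log2(FPKM + 1), without the low-count filter and in the 16-library model (adjusted p = 0.199).

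In PANC-1, NEAT1 had 74.4 and 104.7 CPM in the controls, 131 and 135 with gemcitabine, 191 and 186 with genistein, and 234 and 169.9 with co-treatment. Both control libraries were below all treated ones. The gemcitabine contrast was 0.62 (SE 0.21, 95% interval 0.13 to 1.11, adjusted p = 0.114), called with GC correction (0.50, adjusted p = 0.0202), in the 16-library model (0.58, adjusted p = 0.0437) and without control replicate 2 (0.91, adjusted p = 0.0299). The genistein contrast was 1.11 (SE 0.21, 95% interval 0.62 to 1.60, adjusted p = 0.109). It was called by DESeq2 (adjusted p = 0.000263), with GC correction (0.96, adjusted p = 0.00648) and in the 4-library and 16-library models (adjusted p = 0.0211 and 0.0110). Genistein added to gemcitabine gave 0.56 (adjusted p = 0.307), called with GC correction (0.56, adjusted p = 0.0275). Leaving aside RP11-284F21.10, genistein against control called 0 of the 6 RNAs tested in PANC-1 by limma-voom and edgeR and 1 by DESeq2. Limma-voom called 0.0591% of all genes, or 10, all higher (0% lower), while DESeq2 called 739 genes and GC correction 1227. Genistein added to gemcitabine called 0 of the 6 by limma-voom, edgeR and DESeq2. Limma-voom called 0.0177% of all genes, or 3, 0.0118% higher and 0.00591% lower, while DESeq2 called 208 genes and GC correction 1263. In both contrasts 1 of the 6, NEAT1, had an unadjusted p under 0.05 in limma-voom.

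The gemcitabine response of NEAT1 had opposite signs in the lines, and the difference was 1.81 (SE 0.27, 95% interval 1.22 to 2.39, adjusted p = 0.00135, limma-voom). It held under every alternative tried (1.73 with GC correction). Differences of gemcitabine response were called for 3 of the 7 RNAs, all higher in PANC-1, where 15.3% of all genes were called, 6.21% higher and 9.06% lower. The corresponding difference for MALAT1 was 1.16 (SE 0.39, adjusted p = 0.0612), called by DESeq2 (adjusted p = 0.0313), with GC correction (0.92, adjusted p = 0.0277) and without PANC-1 control replicate 2 (1.58, adjusted p = 0.00559). Differences of genistein response were called by limma-voom for 0.0336% of all genes, or 6, 0.0056% higher and 0.028% lower. DESeq2 called 186 genes and GC correction 479. Of the 6 RNAs tested in it limma-voom called none and DESeq2 1, and 2 had an unadjusted p under 0.05 in limma-voom. Among them, the NEAT1 difference was 1.14 (adjusted p = 0.160), called by DESeq2 (adjusted p = 0.00741), with GC correction (0.97, adjusted p = 0.0241) and without PANC-1 control replicate 2 (1.37, adjusted p = 0.0455). Without that library the difference of genistein response of MALAT1 (1.77, adjusted p = 0.0491) and the difference of gemcitabine response of TUG1 (0.76, adjusted p = 0.0467) were also called.

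By deposited isoform values, the short NEAT1 transcript ENST00000499732 (3441 bases) made up 74.2% of the summed FPKM in Mia-PaCa-2 and 77.5% in PANC-1, and the long one, ENST00000501122 (22743 bases), 8.08% and 7.63%. For MALAT1, ENST00000544868 (2505 bases) held 57.1% and 48.2%, and the transcript of 10434 bases, ENST00000534336, 19.8% and 39.4%. Reads of 50 bases divide poorly between transcripts that overlap, so these shares describe Cufflinks' allocation.

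TUG1 (ENSG00000253352, chromosome 22, plus strand, 31365231 to 31375381) had 193 and 179 CPM in Mia-PaCa-2 controls, 135 and 147 with gemcitabine, 148 and 175 with genistein, and 157 and 124 with co-treatment. All 6 treated libraries were below both controls. Gemcitabine lowered it (-0.45, SE 0.12, adjusted p = 0.0115), but GC correction left -0.30 (adjusted p = 0.00645), under the size required. The call was also lost without gemcitabine replicate 1 (-0.40, adjusted p = 0.109) or control replicate 1 (-0.40, adjusted p = 0.107), with library size alone (-0.35), on log2(FPKM + 1) and in the 16-library model (adjusted p = 0.141). Gemcitabine added to genistein gave -0.26 (adjusted p = 0.112), called without co-treatment replicate 1 (-0.45, adjusted p = 0.00432).

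TUG1 ranged from 103.1 to 172 CPM in PANC-1, with no contrast called. Its lowest libraries there, PANC-1 control replicate 1 and co-treatment replicate 2, were also the lowest for MALAT1 and had the largest GC slopes of the line (0.30 and 0.24). TUG1 and MALAT1 have 42.0% GC in their exons, NEAT1 44.1% and RP11-284F21.10 56.9%. The antiparallel neighbor MORC2, a chromatin ATPase gene 471 bases from TUG1, fell with gemcitabine in Mia-PaCa-2 (-0.46, adjusted p = 0.00217) and with gemcitabine added to genistein in both lines (-0.57, adjusted p = 0.000460, and -0.49, adjusted p = 0.0298).

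**Figure D3:**
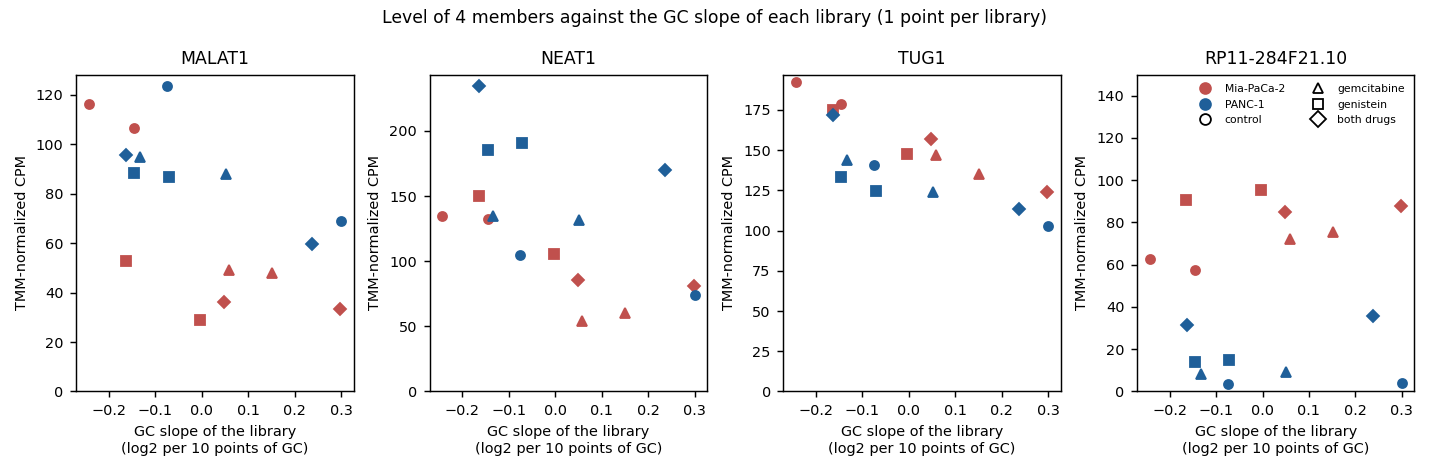
TMM-normalized CPM (vertical axes, from 0) of MALAT1, NEAT1, TUG1 and RP11-284F21.10 against the GC slope of each library (horizontal axis, log2 units per 10 points of GC relative to the line's mean), 1 point per library, with color for the line and shape for the group. TUG1 is lower at higher slopes in both lines, from 193 CPM at -0.24 to 124 CPM at 0.30 in Mia-PaCa-2, whereas the genistein libraries of Mia-PaCa-2 have low MALAT1 (29.0 and 52.7 CPM) at slopes of -0.0037 and -0.16.

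Proteins that share the compartments of MALAT1 and NEAT1 were counted from a list each. Of 13 nuclear speckle genes, which encode SR proteins and other splicing factors, 11 fell and 0 rose with gemcitabine in Mia-PaCa-2 (median -0.74, against -0.01 over all genes, of which 14.6% were lower). SRSF1 (-1.33, adjusted p = 1.8e-06), SRSF3 (-1.06, adjusted p = 7.5e-06) and SRSF7 (-0.98, adjusted p = 7.8e-06) had the lowest values. Gemcitabine added to genistein lowered 12 of the 13 (median -0.67, with 14.9% of all genes lower). GC correction gave 12 of 13 in both contrasts, and leaving out a library gave 10 to 12 and 12. With GC correction 16.3% and 20.4% of all genes were lower in these contrasts. Genistein lowered 3 against the control and 3 when added to gemcitabine, where 4.13% and 1.83% of all genes were lower, and GC correction gave 1 and 3, with 4.85% and 4.19% of all genes lower. The first count was 0 without genistein replicate 1 or control replicate 1, 1 without control replicate 2 and 6 without genistein replicate 2. The second was 0 without either gemcitabine replicate, 1 without co-treatment replicate 2 and 7 without co-treatment replicate 1.

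In PANC-1 gemcitabine against control called 0 of the 13 speckle genes by limma-voom, edgeR and DESeq2, and 5 had an unadjusted p under 0.05 in limma-voom. Limma-voom called 4.49% of all genes higher and 3.03% lower there. Without control replicate 2, 1 was called higher. GC correction called 2 of the 13 lower in this contrast, 3 with gemcitabine added to genistein, and 1 and 6 with genistein against control and added to gemcitabine, both of which were 0 without the correction. In the same order it called 9.34%, 13.2%, 3.22% and 3.47% of all genes lower. Added to genistein, gemcitabine lowered 2 (4.31% of all genes were lower), THRAP3 (-0.50, adjusted p = 0.0321) and SON (-0.42, adjusted p = 0.0396), which also fell in Mia-PaCa-2 (-0.67 and -0.58). The PANC-1 count was 1 without co-treatment replicate 1 and 0 without any of the other 3 libraries. Of 16 paraspeckle genes, gemcitabine lowered 7 in Mia-PaCa-2 (median -0.37, against -0.01 over all genes, of which 14.6% were lower). SFPQ (-0.46) and NONO (-0.43), which form a dimer needed for paraspeckles, were among them. In PANC-1 it lowered 0 (3.03% of all genes were lower), DESeq2 called 1, and 3 had an unadjusted p under 0.05 in limma-voom. GC correction called 3 of the 15 with a GC value lower there, where 9.34% of all genes were lower. A call also arose without control replicate 1. HNRNPH3 (-1.15 and -0.92) and HNRNPK (-0.61 and -0.50), both binders of NEAT1, fell in both lines with gemcitabine added to genistein, with adjusted p of 0.0215 and 0.0469 in PANC-1. In PANC-1 that paraspeckle count of 2 was 1 without co-treatment replicate 1 and 0 without any of the other 3 libraries.

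UCA1 (ENSG00000214049, chromosome 19, plus strand, 15939016 to 15947138) was read almost only in Mia-PaCa-2. There it had 249.9 and 262 CPM in the controls, 193 and 195 with gemcitabine, 349 and 351 with genistein, and 174 and 178 with co-treatment. The 4 groups did not overlap, and replicates lay close together. In PANC-1 the libraries held 0 to 5 counts each, 1 over both control libraries against 7532 in Mia-PaCa-2. The depth-scaled ratio of the controls was 13255.5 with an exact Clopper-Pearson counting interval of 2378 to 523632, and with 7 PANC-1 counts in the genistein group it was 1305 (633 to 3245). These intervals cover counting error only. They do not test the line difference, since the RNAs were chosen as abundant or line-specific. UCA1 had too few counts in PANC-1 for any drug contrast.

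In Mia-PaCa-2 the drugs moved UCA1 in opposite directions. Gemcitabine lowered it (-0.45, SE 0.07, 95% interval -0.61 to -0.29, adjusted p = 0.000593) and genistein raised it (0.44, SE 0.07, adjusted p = 0.00398). On top of genistein, gemcitabine lowered it by 1.03 on the log2 scale (SE 0.07, adjusted p = 1.4e-06), a call held under every alternative tried, while genistein on top of gemcitabine gave -0.14 (adjusted p = 0.275). The interaction was -0.58 (SE 0.11, adjusted p = 0.113), called by DESeq2 (adjusted p = 0.00459), with GC correction (-0.59, adjusted p = 0.0135) and without co-treatment replicate 1 (adjusted p = 0.0499). The calls on the single drugs lie near the size required. The first was lost with library sizes alone (-0.35), on log2(FPKM + 1) (-0.34) and in the 16-library model (-0.399). The second was lost with GC correction (0.38), on log2(FPKM + 1) (0.26) and without control replicate 1 (0.41, adjusted p = 0.0836).

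By limma-voom and edgeR no interaction of the 2 drugs was called among the 7 RNAs tested in Mia-PaCa-2 or the 6 in PANC-1, RP11-284F21.10 left aside (0.0249% of all genes in Mia-PaCa-2, 0.00623% higher and 0.0187% lower, and 0% in PANC-1, by limma-voom), and DESeq2 called 1 and 0. Over all genes DESeq2 called 34 and 4 interactions and GC correction 117 and 2, against 4 and 0 by limma-voom. In limma-voom 5 of these RNAs in Mia-PaCa-2 and 0 in PANC-1 had an unadjusted p under 0.05. Summed isoform FPKM of UCA1 in Mia-PaCa-2 fell to ENST00000600160 (998 bases, 61.1%) and ENST00000397381 (2057 bases, 38.3%). Exons of LINC01764 on the opposite strand cover 26.1% of UCA1, but LINC01764 had 0 to 18 counts per library.

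PVT1 (ENSG00000249859, chromosome 8, plus strand, 128806772 to 129199347) had 13.9 and 12.9 CPM in Mia-PaCa-2 controls, 10.7 and 9.62 with gemcitabine, 13.6 and 13.5 with genistein, and 7.17 and 6.72 with co-treatment. Co-treatment was the lowest group, and the genistein libraries lay within the range of the controls. Gemcitabine lowered PVT1 when added to genistein (-1.01, adjusted p = 0.000246), a call held with each library left out and lost only on log2(FPKM + 1). Against control it lowered PVT1 by less (-0.46, SE 0.14, adjusted p = 0.0212). That call was lost by DESeq2 (adjusted p = 0.0950), with library size alone (-0.35), on log2(FPKM + 1) and without gemcitabine replicate 1 (adjusted p = 0.0565) or 2 (adjusted p = 0.130) or control replicate 1 (adjusted p = 0.162) or 2 (adjusted p = 0.0561). Genistein added to gemcitabine gave -0.55 (adjusted p = 0.0513), called with GC correction (-0.62, adjusted p = 0.00615) and by edgeR (adjusted p = 0.0431).

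The neighbor MYC, 51575 bases from PVT1, fell in the same 2 gemcitabine contrasts (-0.65, adjusted p = 8.0e-05, and -1.19, adjusted p = 1.1e-06) and with genistein added to gemcitabine (-0.44, adjusted p = 0.00849). In PANC-1 the groups of PVT1 lay between 22.0 and 28.6 CPM with no contrast called. The difference of gemcitabine response between the lines was 0.54 (adjusted p = 0.0502), called by DESeq2 (adjusted p = 0.0423) and with GC correction (0.63, adjusted p = 0.00818).

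LINC00152 (ENSG00000222041, chromosome 2, plus strand, 87754300 to 87936259) had 7.77 and 9.29 CPM in PANC-1 controls, 16.3 and 13.7 with gemcitabine, 11.6 and 10.5 with genistein, and 18.5 and 19.6 with co-treatment. The groups did not overlap, and both gemcitabine-treated groups were above both others. Gemcitabine raised it 1.80-fold over the control (0.85, SE 0.17, adjusted p = 0.0255) and 1.71-fold when added to genistein (0.78, SE 0.18, adjusted p = 0.0371), where 2 of the 7 RNAs were called, both higher, and 8.18% of all genes, 3.87% higher and 4.31% lower.

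Both LINC00152 calls were lost in several settings. The first was lost without gemcitabine replicate 1 (0.73, adjusted p = 0.185) or 2 (0.96, adjusted p = 0.134) or control replicate 1 (0.68, adjusted p = 0.0809), and with the 4 libraries alone (adjusted p = 0.0730). The second was lost without genistein replicate 1 (adjusted p = 0.179) or 2 (adjusted p = 0.249) or co-treatment replicate 1 (adjusted p = 0.0658) or 2 (adjusted p = 0.121), without the low-count filter (adjusted p = 0.0639) and with the 4 libraries alone (adjusted p = 0.0521).

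In Mia-PaCa-2, LINC00152 ranged from 16.3 to 22.8 CPM. Gemcitabine against control gave -0.05 (adjusted p = 0.774), and added to genistein it lowered the RNA by 0.40 on the log2 scale (adjusted p = 0.0213), lost by DESeq2 (adjusted p = 0.0620), with other scalings (-0.39 with DESeq2 size factors, -0.29 with library size alone), on log2(FPKM + 1), in the 4-library and 16-library models (adjusted p = 0.0696 and 0.0643) and without genistein replicate 2 (adjusted p = 0.125) or co-treatment replicate 1 (-0.32, adjusted p = 0.0871). The gemcitabine response differed between the lines by 0.79 (SE 0.20, adjusted p = 0.0190). That call was lost without Mia-PaCa-2 gemcitabine replicate 1 (adjusted p = 0.0656) or 2 (adjusted p = 0.0630), Mia-PaCa-2 control replicate 2 (0.72, adjusted p = 0.0747) or PANC-1 gemcitabine replicate 1 (0.70, adjusted p = 0.0613).

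Sequence shared with another gene limits what the counts of LINC00152 can say. Of 16508 windows of 50 bases in its exons, 9027 (54.7%) also occur in the exons of MIR4435-1HG on the same chromosome, and reads that aligned to more than 1 place had been removed. Reads from the shared stretches would thus be missing from the counts of both genes. The share was not computed for single transcripts. MIR4435-1HG gave 0.06 for gemcitabine against control in PANC-1 (adjusted p = 0.790) and fell with gemcitabine added to genistein in Mia-PaCa-2 (-0.52, adjusted p = 0.00468). The promoters of the 2 genes, from RefSeq on GRCh38.p14 (chr2:87455177-87455476, plus strand, and chr2:111495112-111495411, minus strand), share a run of 241 identical bases and are shown for that likeness. Capitals mark AP-1 matches and, in LINC00152, the CCAAT box after them.
LINC00152 promoter: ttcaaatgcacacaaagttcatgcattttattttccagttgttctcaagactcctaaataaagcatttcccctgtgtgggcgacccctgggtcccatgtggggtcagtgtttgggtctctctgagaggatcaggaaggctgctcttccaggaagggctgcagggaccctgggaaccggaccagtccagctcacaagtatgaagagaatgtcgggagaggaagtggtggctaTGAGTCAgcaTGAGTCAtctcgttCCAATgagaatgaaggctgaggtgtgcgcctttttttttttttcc
MIR4435-1HG promoter: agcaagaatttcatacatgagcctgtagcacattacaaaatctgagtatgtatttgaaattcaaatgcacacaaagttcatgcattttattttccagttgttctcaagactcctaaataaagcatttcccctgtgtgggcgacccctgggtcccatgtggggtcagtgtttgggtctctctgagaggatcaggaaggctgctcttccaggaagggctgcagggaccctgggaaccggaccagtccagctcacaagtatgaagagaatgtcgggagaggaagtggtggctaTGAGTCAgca
Counted from the start as annotated, both AP-1 matches of LINC00152 lie just before the start, and in MIR4435-1HG 1 match begins at base 41 after it, because its annotated start lies further upstream in the shared stretch. The identical run ends with the window of MIR4435-1HG, before the second AP-1 match of LINC00152. Whether MIR4435-1HG holds that match was not looked at. RefSeq names this gene MIR4435-2HG. By isoform values, ENST00000413202 (422 bases) made up 75.5% of the summed FPKM of LINC00152 in Mia-PaCa-2 and 64.7% in PANC-1, and ENST00000331944 (529 bases) 18.8% and 24.2%.

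MIR22HG (ENSG00000186594, chromosome 17, minus strand, 1614741 to 1620468) carries miR-22, whose mature forms are shown because the gene is known for them. The sequences are from RefSeq on GRCh38.p14 (chr17:1713914-1713935 and chr17:1713952-1713973, minus strand), with the seed, bases 2 to 8, in capitals. The 2 arms come from one hairpin and have different seeds.
hsa-miR-22-3p: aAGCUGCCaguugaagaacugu
hsa-miR-22-5p: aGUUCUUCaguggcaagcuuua
Poly-A libraries do not measure these mature forms, only the host transcript.

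MIR22HG had 15.8 and 14.9 CPM in Mia-PaCa-2 controls, 14.9 and 12.5 with gemcitabine, 13.8 and 14.6 with genistein, and 19.9 and 19.6 with co-treatment. Only the co-treatment libraries stood above the controls. Co-treatment was higher than gemcitabine (0.53, adjusted p = 0.0337) and than genistein (0.42, adjusted p = 0.0228), while neither drug alone was called against control (-0.23, adjusted p = 0.216, and -0.12). The first call was lost without co-treatment replicate 2 (adjusted p = 0.0524) or gemcitabine replicate 1 (0.67, adjusted p = 0.0970) or 2 (0.40, adjusted p = 0.241), and also by DESeq2 (adjusted p = 0.0569), with library size alone (adjusted p = 0.0508), without the low-count filter (adjusted p = 0.0676), on log2(FPKM + 1) (adjusted p = 0.123) and in the 4-library and 16-library models (adjusted p = 0.0570 and 0.0520). The second was lost with GC correction (0.27, adjusted p = 0.0636), by DESeq2 (adjusted p = 0.0533), with the 4 libraries alone (adjusted p = 0.0553), on log2(FPKM + 1) (adjusted p = 0.0618) and without genistein replicate 1 (0.37, adjusted p = 0.103) or 2 (0.48, adjusted p = 0.0779) or co-treatment replicate 1 (0.39, adjusted p = 0.0548). In PANC-1 the libraries ranged from 14.6 to 20.5 CPM, and no contrast was called.

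The deposited gene FPKM of MIR22HG and PVT1 does not follow the counts in PANC-1. For MIR22HG the summed isoform FPKM reached 20.9 and 97.4 in the co-treatment replicates and 36.2 in gemcitabine replicate 2, of which 11.1, 87.2 and 27.0 came from the single transcript ENST00000362190. Without that transcript the PANC-1 libraries lay between 7.66 and 10.5 FPKM. For PVT1 the sum reached 407 in gemcitabine replicate 1 and 259 in genistein replicate 2, with 320 and 207 from ENST00000408388, and lay between 51.5 and 86.6 without it. Neither transcript is in the GENCODE release used here, and fold changes on FPKM for these 2 genes in PANC-1 carry that term. The contrasts above therefore rest on counts.

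**Figure D4:**
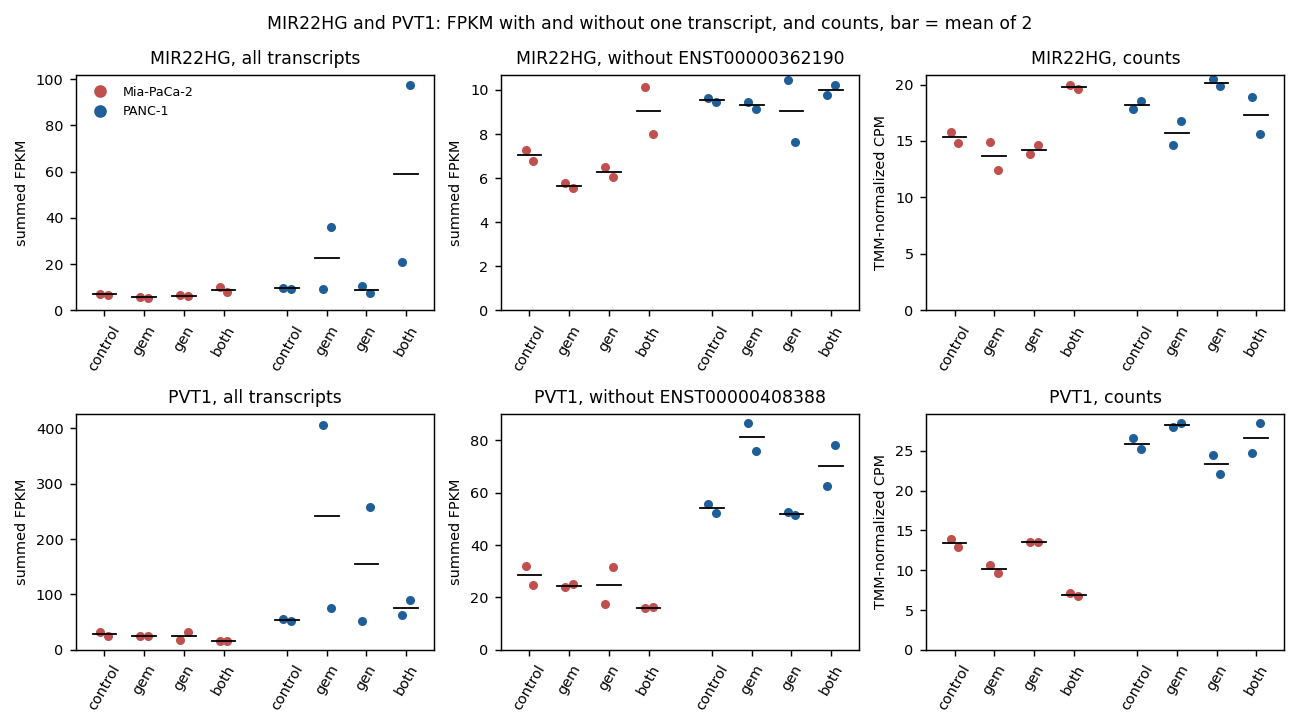
MIR22HG (top) and PVT1 (bottom) in each library as summed isoform FPKM, the same without 1 transcript, and TMM-normalized CPM from counts (vertical axes from 0, bars at the mean of 2). The PANC-1 libraries that reach 97.4 FPKM for MIR22HG and 407 FPKM for PVT1 fall back to 10.2 and 86.6 FPKM without the transcript named in the panel, and to 15.6 and 28.0 CPM in the counts.

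**Figure D5:**
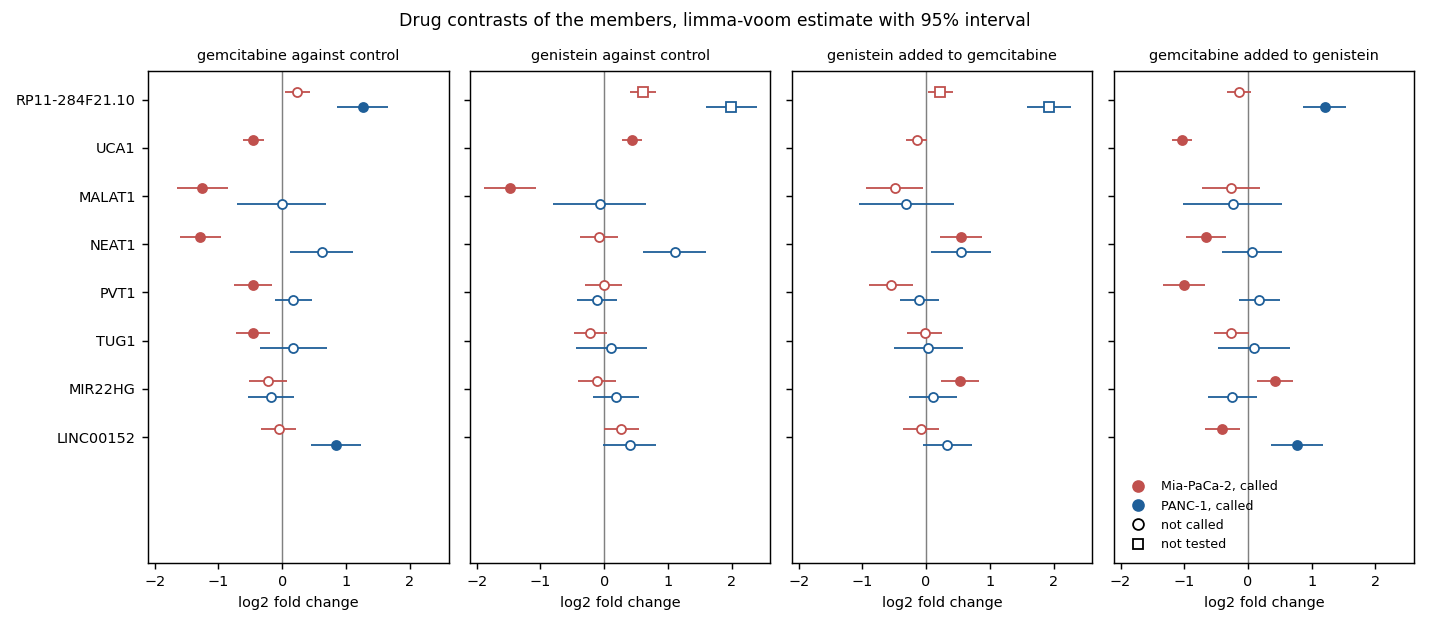
Log2 fold change (horizontal axes) with its 95% interval for each RNA in 4 drug contrasts, Mia-PaCa-2 in red and PANC-1 in blue. Filled points were called, open circles were not, and open squares are the values of RP11-284F21.10 that chose it and were not tested. The intervals on those squares are no test either, because the same values chose the RNA. In gemcitabine against control all 5 called points of Mia-PaCa-2 lie left of 0 and both called points of PANC-1 right of it.

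Other noncoding RNAs were counted from 2 further lists. Of 28 other known long noncoding RNAs that passed the filter in Mia-PaCa-2, gemcitabine raised 6 and lowered 6, where 15% and 14.6% of all genes were called. GC correction gave 6 and 3 of 27 with a GC value, and DESeq2 5 and 3. Without 1 library the counts were 4 and 2 (control replicate 1), 4 and 4 (control replicate 2), 5 and 4 (gemcitabine replicate 1) or 5 and 3 (gemcitabine replicate 2). Added to genistein it raised 9 and lowered 2, where 16.6% and 14.9% of all genes were called, and GC correction gave 8 and 0 and DESeq2 5 and 0. Those counts were 5 and 1 without genistein replicate 1, 4 and 0 without genistein replicate 2, 7 and 2 without co-treatment replicate 1, and 6 and 0 without co-treatment replicate 2. In PANC-1 gemcitabine raised 1 and lowered 2 of 29 (4.49% and 3.03% of all genes), 5 and 4 with GC correction, and 0 and 0 without either gemcitabine replicate, 1 and 1 without control replicate 1 and 0 and 2 without control replicate 2. Added to genistein it raised 3 and lowered 1 (3.87% and 4.31% of all genes), 5 and 1 with GC correction, and 2 and 0 without either co-treatment replicate or 0 and 0 without either genistein replicate. Genistein against control raised 1 and lowered 1 in Mia-PaCa-2 (4.18% and 4.13% of all genes, and 3 and 2 with GC correction), and lowered 0 without genistein replicate 1 or either control replicate and 2 without genistein replicate 2. It called 0 in PANC-1 by limma-voom and edgeR, where DESeq2 called 2, GC correction 5, and 8 had an unadjusted p under 0.05 in limma-voom. Over all genes limma-voom called 10 there, DESeq2 739 and GC correction 1227. Of the microRNA host RNAs, 5 passed in Mia-PaCa-2 and 7 in PANC-1. In Mia-PaCa-2 gemcitabine lowered 1 against control (14.6% of all genes were lower), which was 2 with GC correction or without gemcitabine replicate 2 and 0 without gemcitabine replicate 1. Added to genistein it raised 1 and lowered 1 (16.6% and 14.9% of all genes), and raised 0 without genistein replicate 2 or co-treatment replicate 2. In PANC-1 limma-voom called 0 of the 7, of which 2 had an unadjusted p under 0.05 in each gemcitabine contrast and 0 in each genistein contrast. GC correction called 1 there with gemcitabine against control and 2 with gemcitabine added to genistein. Over all genes GC correction called 12.5% higher and 16.3% lower with gemcitabine in Mia-PaCa-2, and 9.29% and 9.34% in PANC-1. With gemcitabine added to genistein these shares were 13.5% and 20.4%, and 9.68% and 13.2%. With genistein against control they were 6.38% and 4.85%, and 4.19% and 3.22%.

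The genes whose pattern was most like each RNA were ranked by Pearson's r of log2 CPM over the 16 libraries, with the mean of each line removed, among 17862 genes. Libraries share depth and GC slope, so these are descriptions. For RP11-284F21.10 they were LAYN (0.96), SDR42E1 (0.94) and CTD-2263F21.1 (0.94), and for UCA1 MTMR3 (0.90), NTPCR (0.87) and ARIH2 (0.86). VPS13A (0.96), UACA (0.95) and GOLGB1 (0.94) were closest to MALAT1, and DCAF16 (0.91), TSEN15 (0.90) and ZNF252P (0.89) to NEAT1. The closest to PVT1 were URB2 (0.97), PPRC1 (0.96) and MAPKAPK5 (0.96), and to TUG1 MIOS (0.98), TAF9 (0.95) and SIKE1 (0.94). MIR22HG was followed most closely by ROBO1 (0.87), RP11-288G3.4 (0.86) and LAP3 (0.83), and LINC00152 by KCNK5 (0.94), TMEM98 (0.93) and BTG2 (0.92). Among the 8 themselves, RP11-284F21.10 and LINC00152 had an r of 0.77, MALAT1 and TUG1 0.69, NEAT1 and TUG1 0.66, and PVT1 and MIR22HG -0.68, over the same 16 libraries.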

How the data were processed

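RNA-Seq libraries (TruSeq Stranded mRNA, poly-A, single reads of 50 bases) were made from 2 replicates of 8 groups. The authors aligned reads to GRCh37 with TopHat2 2.0.4, removed reads with multiple alignments (Picard 1.29, SAMtools), and deposited raw gene counts from HTSeq 0.6.1. The deposited gene and isoform FPKM values were made by the authors with Cufflinks 2.1.1, and extra rows of repeated gene IDs (242) were summed. Strand setting and annotation release are not given in the sources used here.

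Counts were TMM-normalized, filtered with filterByExpr, and fitted with limma-voom (limma 3.58.1, edgeR 4.0.16, R 4.3.3), 8 libraries of a line per model and 16 for differences between lines. Tests covered 16064 genes in Mia-PaCa-2, 16909 in PANC-1 and 17863 over both, and a call needed a Benjamini-Hochberg adjusted p within 0.05, a change of 0.4 or more on the log2 scale in either direction, and over 1 FPKM on average in the treated group. Interactions and differences of response used the adjusted p alone. The fits were tested on simulated data. Alternatives were edgeR's quasi-likelihood test, DESeq2 1.42.0, other scalings, limma-trend on log2(FPKM + 1), no filter, a replicate block, other sample sets, a loess correction for GC content (span 0.3, degree 1) and each library left out. Settings for the lists were chosen after seeing the data.

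The RNAs and gene lists were chosen with earlier results of these data known. The rule for named genes took the 8 RNAs, genes within 100 kb of them, up to 4 genes per list with same-sign calls in each line, and the 3 genes most like each RNA. SRSF1, SRSF3, SRSF7, SFPQ, NONO, MIR4435-1HG and the RNAs of the closing observations fall outside it and were chosen after their values were seen. Gene positions and overlaps come from GENCODE release 44 lifted to GRCh37.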

Additional observations from a re-analysis of the deposited data

Results flagged for a closer look

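The gemcitabine response differed between the lines for 3 of the 7 RNAs that could be compared, by a test of the difference itself (limma-voom over 16 libraries, adjusted p over all genes). By the same test 15.3% of all genes differed, 6.21% higher in PANC-1 and 9.06% lower. The value given for each line comes from its own model of 8 libraries. The values of the 2 lines therefore need not subtract exactly to the tested difference. For NEAT1 the difference, PANC-1 minus Mia-PaCa-2, was 1.81 on the log2 scale (SE 0.27, adjusted p = 0.00135), with -1.28 in Mia-PaCa-2 and 0.62 in PANC-1. The PANC-1 value alone was not called (limma-voom, adjusted p = 0.114). For RP11-284F21.10 the difference was 0.94 (SE 0.19, adjusted p = 0.00715), with 0.24 in Mia-PaCa-2 and 1.27 in PANC-1. That call was lost on log2(FPKM + 1) (0.48), and its p is not independent of the choice of this RNA. For LINC00152 the difference was 0.79 (SE 0.20, adjusted p = 0.0190), with -0.05 in Mia-PaCa-2 and 0.85 in PANC-1. Its counts leave out reads that aligned to more than 1 place, which the sequence shared with MIR4435-1HG can give. The LINC00152 call was lost without either Mia-PaCa-2 gemcitabine replicate, Mia-PaCa-2 control replicate 2 or PANC-1 gemcitabine replicate 1.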

How the results depend on the processing

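Of 21 calls tested, 5 were kept in every setting, namely MALAT1 with gemcitabine and with genistein in Mia-PaCa-2, NEAT1 with gemcitabine in Mia-PaCa-2, UCA1 with gemcitabine added to genistein in Mia-PaCa-2, and the difference of gemcitabine response of NEAT1. The other 16 were lost in at least 1 setting, none reversed, and 15 results without a call gained one in some setting. With 2 replicates a group, each interval rests on few degrees of freedom, and the cause of the changes was not tested. Deviations of same-numbered samples correlated from -0.262 to 0.131 in Mia-PaCa-2 and from -0.505 to 0.256 in PANC-1, with 1 of 6 pairs over 0.1 in each. These values show no common pairing by replicate number. They cannot exclude it, since GC slopes also differed between replicates of a group, so a replicate block was tried as an alternative. The block lost the calls of LINC00152 with gemcitabine (adjusted p = 0.0700) and with gemcitabine added to genistein (adjusted p = 0.0813) in PANC-1 and, in Mia-PaCa-2, those of LINC00152 with gemcitabine added to genistein (-0.397), and of NEAT1 (adjusted p = 0.0739) and MIR22HG (adjusted p = 0.0636) with genistein added to gemcitabine.

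Counts of RNAs called moved by more than 1.5 times as follows. RP11-284F21.10, whose part in the genistein contrasts is a description, is left aside in those contrasts here. For Mia-PaCa-2 gemcitabine against control, 5 became 3 in the 16-library model and 2 with library size alone or limma-trend on log2(FPKM + 1). The total over all genes went from 4747 to 4633 with library size alone and 3193 on log2(FPKM + 1). For Mia-PaCa-2 genistein against control, 2 became 1 on log2(FPKM + 1) and with GC correction (with or without the replicate block). The total over all genes went from 1335 to 229 on log2(FPKM + 1) and to 1769 with GC correction. For Mia-PaCa-2 genistein added to gemcitabine, 2 became 1 with DESeq2 or library size alone and 0 in the 16-library model, on log2(FPKM + 1), without the low-count filter or with the replicate block. For Mia-PaCa-2 gemcitabine added to genistein, 5 became 3 with DESeq2 or the 4 libraries alone and 1 on log2(FPKM + 1). Over all genes 5068 became 4350 with DESeq2 and 3514 on log2(FPKM + 1). For PANC-1 gemcitabine against control, 2 became 1 with the 4 libraries alone or the replicate block, and for PANC-1 gemcitabine added to genistein 2 became 1 with these or without the filter. With the block the totals over all genes went from 1272 to 442 and from 1383 to 499. Without the filter the second total was 930. For PANC-1 genistein against control, 0 became 1 (NEAT1) with DESeq2, GC correction (with or without the replicate block), 16 or 4 libraries. All genes called there went from 10 to 739 with DESeq2 and 1227 with GC correction. For PANC-1 genistein added to gemcitabine, 0 became 1 (NEAT1) with GC correction, where all genes called went from 3 to 1263. The Mia-PaCa-2 interaction went from 0 to 1 with DESeq2 and GC correction, with or without the replicate block. Over all genes 4 interactions became 34 with DESeq2 and 117 with GC correction. The difference of gemcitabine response went from 3 to 5, and that of genistein response from 0 to 1 (NEAT1), with the same settings. All genes called for the latter went from 6 to 186 with DESeq2 and 479 with GC correction. For the former they went from 2728 to 3281 and 4645.

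With 1 library left out, the counts ranged from 3 to 4 for Mia-PaCa-2 gemcitabine against control, 2 to 3 for genistein against control, 0 to 1 for genistein added to gemcitabine, 2 to 5 for gemcitabine added to genistein and 0 to 1 for the interaction. In PANC-1 they ranged from 0 to 3 for gemcitabine against control and 0 to 1 for gemcitabine added to genistein, and were 0 for genistein against control, genistein added to gemcitabine and the interaction. They ranged from 2 to 5 for the difference of gemcitabine response and 0 to 3 for that of genistein response.

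Values without a call changed sign in these settings. With GC correction, and with GC correction and the replicate block, RP11-284F21.10 Mia-PaCa-2 gemcitabine against control was -0.018 and -0.017, TUG1 Mia-PaCa-2 genistein added to gemcitabine 0.016 and 0.016, TUG1 PANC-1 gemcitabine against control -0.0049 and -0.0054, TUG1 PANC-1 genistein against control -0.017 and -0.018, LINC00152 PANC-1 gemcitabine by genistein interaction 0.065 and 0.064, TUG1 PANC-1 gemcitabine by genistein interaction 0.11 and 0.11, MIR22HG gemcitabine response PANC-1 minus Mia-PaCa-2 0.14 and 0.14, and LINC00152 genistein response PANC-1 minus Mia-PaCa-2 -0.069 and -0.062. In the 16-library model LINC00152 Mia-PaCa-2 gemcitabine against control was 0.00016 and PVT1 Mia-PaCa-2 genistein against control 0.0078. With library size alone LINC00152 Mia-PaCa-2 gemcitabine against control was 0.054, MALAT1 PANC-1 gemcitabine against control 0.10 and MIR22HG gemcitabine response PANC-1 minus Mia-PaCa-2 0.059. This scaling moved the median of all genes from 0.03 to 0.14 in PANC-1 gemcitabine against control and from 0.00 to 0.15 in PANC-1 gemcitabine added to genistein. With the 4 libraries alone MALAT1 PANC-1 gemcitabine against control was 0.0026, and with the replicate block PVT1 Mia-PaCa-2 genistein against control was 0.0016.

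On log2(FPKM + 1), NEAT1 Mia-PaCa-2 genistein against control was 0.026, MALAT1 Mia-PaCa-2 gemcitabine added to genistein 0.085, TUG1 Mia-PaCa-2 gemcitabine added to genistein 0.022, MALAT1 PANC-1 gemcitabine against control 0.15, MIR22HG PANC-1 genistein against control -0.082 and RP11-284F21.10 PANC-1 gemcitabine by genistein interaction 0.33. In contrasts that hold a PANC-1 library where 1 transcript took much of the gene's FPKM, the values were MIR22HG PANC-1 gemcitabine against control 0.90, MIR22HG PANC-1 gemcitabine added to genistein 2.22, MIR22HG PANC-1 gemcitabine by genistein interaction 1.32, MIR22HG gemcitabine response PANC-1 minus Mia-PaCa-2 1.18, PVT1 PANC-1 genistein against control 1.10, PVT1 PANC-1 gemcitabine added to genistein -0.64, PVT1 PANC-1 gemcitabine by genistein interaction -2.33 and PVT1 genistein response PANC-1 minus Mia-PaCa-2 1.35.

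Leaving out 1 library turned the sign of these uncalled values, given as ranges. LINC00152 ran from -0.14 to 0.019 for Mia-PaCa-2 gemcitabine against control, -0.17 to 0.014 for genistein added to gemcitabine there, -0.21 to 0.12 for the PANC-1 interaction and -0.036 to 0.19 for the genistein response difference. MALAT1 ran from -0.68 to 0.22 for Mia-PaCa-2 gemcitabine added to genistein, and in PANC-1 from -0.59 to 0.12 for that contrast, -0.44 to 0.47 for gemcitabine, -0.70 to 0.21 for the interaction, -0.66 to 0.052 for genistein added to gemcitabine and -0.53 to 0.38 for genistein. MIR22HG ran from -0.23 to 0.075 for the PANC-1 interaction, -0.041 to 0.26 for PANC-1 genistein added to gemcitabine and -0.19 to 0.075 for the gemcitabine response difference. NEAT1 ran from -0.37 to 0.17 for Mia-PaCa-2 genistein and -0.18 to 0.31 for PANC-1 gemcitabine added to genistein. PVT1 ran from -0.056 to 0.056 for Mia-PaCa-2 genistein and -0.088 to 0.12 for the PANC-1 interaction, and RP11-284F21.10 from -0.17 to 0.080 for the latter. TUG1 ran from -0.21 to 0.18 for Mia-PaCa-2 genistein added to gemcitabine, and in PANC-1 from -0.21 to 0.41 for gemcitabine added to genistein, -0.078 to 0.44 for gemcitabine, -0.39 to 0.24 for the interaction, -0.28 to 0.35 for genistein added to gemcitabine and -0.17 to 0.35 for genistein.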

Other observations

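Other noncoding RNAs with called values included the following. In Mia-PaCa-2, gemcitabine against control raised TINCR (1.39), a regulator of keratinocyte differentiation, LUCAT1 (1.32) and LINC00511 (1.26), and lowered LINC-PINT (-0.76), JPX (-0.73) and DLEU2 (-1.21), which hosts miR-15a and miR-16-1. Genistein raised TINCR (0.93) and lowered HCG11 (-0.68). Gemcitabine added to genistein raised MIR210HG (1.81), the host of miR-210. In PANC-1, gemcitabine raised EPB41L4A-AS1 (0.94) and lowered DANCR (-0.90) and LINC00511 (-0.56), the last of which rose in Mia-PaCa-2. The call of HCG11 with genistein was lost without genistein replicate 1 or either control replicate, that of DLEU2 without gemcitabine replicate 1, that of MIR210HG without genistein replicate 2 or co-treatment replicate 2, and the 3 calls in PANC-1 without either gemcitabine replicate. In PANC-1 the call of EPB41L4A-AS1 was also lost without control replicate 2, and that of DANCR or LINC00511 without control replicate 1. The difference between the lines was not tested for these RNAs. Each p was limma-voom's, adjusted over all genes.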
